A study of Mus musculus with 9 samples.

Results

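Small nucleolar RNAs (snoRNAs), the related small Cajal body and minor spliceosomal RNAs, and their noncoding host genes were described across 9 poly(A) RNA libraries of beige adipocytes. Members were all genes whose symbol begins with Snord, Snora, Scarna, Snhg or Rnu followed by a digit, together with Gas5. They numbered 130 of the 24013 gene symbols measured, 13 of them host genes (12 Snhg genes and Gas5) and 117 short RNAs. The cells were grown from the stromal vascular fraction of inguinal fat of C57BL6/J mice (B6, an obesity-prone strain in the series' words), of obesity-resistant 129X1/SvJ mice (129) and of F1 animals of these strains, with 3 libraries in each group. All 9 cultures received the same browning treatment: the hormones insulin (850 nM) and T3 (1 nM), the PPARγ agonist rosiglitazone (1 µM) and 10% fetal bovine serum throughout, with dexamethasone (1 µM), indomethacin (125 nM) and isobutylmethylxanthine (0.5 mM) added for the first 48 hours. All were taken at day 7. No untreated group was among them, and no F1 cross direction, animal number, sex or age was given. P-values therefore measure only the spread between these libraries, which may be technical.

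Most mammalian snoRNAs are cut out of the introns of host genes and carried in protein complexes to the nucleolus, where box C/D snoRNAs guide the 2'-O-methylation of ribosomal RNA and box H/ACA snoRNAs guide its pseudouridylation. Small Cajal body RNAs (scaRNAs) guide the same changes on spliceosomal RNAs. Snhg genes and Gas5 carry snoRNAs in their introns while their spliced, polyadenylated RNAs encode no known functional protein. Many hosts begin with a pyrimidine run, the 5' terminal oligopyrimidine start shared with ribosomal protein genes, and their spliced RNAs are substrates of nonsense-mediated decay. Mature snoRNAs have no poly(A) tail, so a library made from poly(A) RNA catches few of them. Reads on a short RNA here cannot be told apart from reads on unspliced host RNA.

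The sequences of 6 short RNAs are shown because the results below turn on them. Rnu73b, Snord53 and Snora34 were lower in 129 than in B6, and Snora7a was lower in 129 and in F1. Snord73a is the relative of Rnu73b in the same gene, and Snord47 is the 1 short RNA among those measured that lies inside Gas5. The sequences are GENCODE M21 transcripts of build GRCm38, printed 5' to 3'. Capitals mark the C box (TGATGA), the D box (CTGA) or the ACA box where a search of the RNA strand found those letters. Of 115 short RNAs with such a transcript, 11 had the same length there as in the annotation behind the RPKM. Printed here, Snord53 (78 bases against 68), Snord47 (77 against 65), Snora34 (138 against 118) and Snora7a (140 against 129) are longer than what was measured.
Rnu73b: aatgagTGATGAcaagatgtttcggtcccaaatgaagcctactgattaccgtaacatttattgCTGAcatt
Snord73a: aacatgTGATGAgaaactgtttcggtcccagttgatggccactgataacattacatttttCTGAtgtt
Snord53: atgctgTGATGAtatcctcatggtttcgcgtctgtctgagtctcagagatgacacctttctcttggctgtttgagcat
Snord47: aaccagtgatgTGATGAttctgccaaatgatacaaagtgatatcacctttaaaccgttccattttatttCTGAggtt
Snora34: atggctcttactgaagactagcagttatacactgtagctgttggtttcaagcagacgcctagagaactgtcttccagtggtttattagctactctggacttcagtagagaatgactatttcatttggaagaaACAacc
Snora7a: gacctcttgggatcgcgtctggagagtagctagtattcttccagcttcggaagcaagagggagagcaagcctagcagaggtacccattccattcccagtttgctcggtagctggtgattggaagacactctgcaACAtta

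Rnu73b carries both boxes of a C/D snoRNA, and RefSeq lists it as Snord73b. It shares with Snord73a an unbroken run of 13 bases, tgtttcggtccca. Of the 68 box C/D members with a GENCODE transcript, 44 held TGATGA within the first 20 bases and 62 held CTGA within the last 15. Of the 36 box H/ACA members, 27 held ACA 3 bases from the end. In Snord53 no CTGA was found in the last 15 bases, which says only that these letters are not there.

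Start regions of 3 hosts are shown because these were the ones whose annotated start (the 26th of the 50 bases) is a C followed by at least 4 pyrimidines, here in capitals. They come from RefSeq (GRCm38.p6), where Gas5 lies at chr1:161035141-161035190 on the plus strand, Snhg7 at chr2:26640220-26640269 on the minus strand and Snhg8 at chr3:123508312-123508361 on the minus strand.
Gas5: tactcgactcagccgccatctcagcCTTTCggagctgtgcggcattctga
Snhg7: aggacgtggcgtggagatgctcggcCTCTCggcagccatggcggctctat
Snhg8: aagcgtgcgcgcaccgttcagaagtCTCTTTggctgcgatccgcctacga

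Of the 13 hosts, 11 had start regions in that table, with 12 start sites. A host was counted below if any of its start sites matched, while the shares over all genes count each start site. A start of C and 4 pyrimidines was found for 3 of the 11 hosts and for 2.51% of the 32851 start sites of all genes. The letters TATA, searched on the gene's strand from 40 to 15 bases before the start, were found for 6 of the 11 hosts and for 5.91% of all start sites. Snhg7, Snhg8 and the Gas5 start shown had both. Gas5 has another start in the table, at chr1:161034576-161034625, with neither. Among these 3 the levels below moved differently: Gas5 in 129 was at 36.1% of its B6 level, Snhg7 was within 0.03 log2 units of B6, and Snhg8 passed no test between the parents.

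The files gave RPKM, reads per kilobase of exon in 1000000 assigned reads. Each value was a whole number of reads to within 0.1 read, so reads could be recovered. The B6 libraries held 19130022 to 26931438 such reads, those of 129 held 23710908 to 28473083, and the F1 libraries, each deeper than every parental one, held 39686986 to 53410947. The adipocyte markers Adipoq, Fabp4, Pparg, Plin1, Cidea and Ucp1 were all detected. Their summed RPKM ranged over 23390 to 27050 in the B6 libraries, 27360 to 29650 in the 129 libraries and 31680 to 34240 in the F1 libraries. Most of that sum was Fabp4, with means of 23540 (B6), 26910 (129) and 31350 (F1). Pparg (91.2, 95.4 and 110) and Cidea (6.93, 12.7 and 20.2) followed the same order. Adipoq (1508, 1289 and 1350), Plin1 (477, 451 and 476) and Ucp1 (9.88, 62.7 and 52.4) did not. Differences below are in log2(RPKM + 1) with standard errors from limma, which understate folds of low genes, and a gene was called at an adjusted p under 0.05 over the 11542 genes with an RPKM of at least 1 in at least 3 libraries. With 3 libraries against 3, an exact two-sided permutation test of 1 gene cannot give a p below 0.1. In these bulk cultures, fewer cells of a type and less RNA per cell cannot be told apart.

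All 13 hosts passed the filter. Between the parents 2 hosts were higher in 129 (Snhg1 and Snhg5) and 4 were lower (Gas5, Snhg6, Snhg18 and Snhg3), while 37.5% of all genes tested were called in this comparison, 15.9% higher and 21.7% lower. The same 6 were called by voom, a test on the recovered reads, which called 37.1% of all genes. The median difference over the 13 hosts was -0.18, beside -0.03 over all genes. In 2 hosts all 129 libraries were above all B6 libraries and in 6 all were below, where 49.9% of all genes had groups that did not overlap. Reads on the 13 hosts together came to 257 to 274 in every 1000000 for B6 libraries, 195 to 203 for 129 and 199 to 217 for F1, so B6 stood above both other groups without overlap.

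Gas5, a growth arrest-specific host whose spliced RNA can bind the glucocorticoid receptor, showed the largest difference between the parents among the hosts. Its 4 annotated blocks lie on chromosome 1 from 162965297 to 162968668 (mm9, plus strand). Its RPKM was 30.4, 29.2 and 29.5 in the B6 libraries, 10.9, 10.3 and 10.9 in 129, and 17.6, 18.6 and 17.2 in F1. The 3 groups did not overlap, with F1 between the parents. Means were 29.7 ± 0.593 in B6, 10.7 ± 0.375 in 129 and 17.8 ± 0.704 in F1 (SD, n = 3), so 129 held 36.1% of the B6 level. By limma Gas5 was lower in 129 than in B6 by a log2 difference of -1.39 ± 0.04 (adjusted p = 3.18e-09). F1 was below B6 by -0.71 ± 0.04 (adjusted p = 2.01e-06) and above 129 by 0.68 ± 0.04 (adjusted p = 2.49e-06). Against the average of both parents on the log2 scale (the mid-parent value), F1 differed by -0.01 ± 0.04 (adjusted p = 0.858). With the mid-parent taken as the mean of the parental RPKM, F1 was lower by -0.17 (adjusted p = 0.00904), so the call depended on the scale of the average. Gas5 took 28.3% to 29.1% of all host reads (B6), 13.4% to 14.3% (129) and 21.8% to 22.6% (F1).

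**Figure D1:**
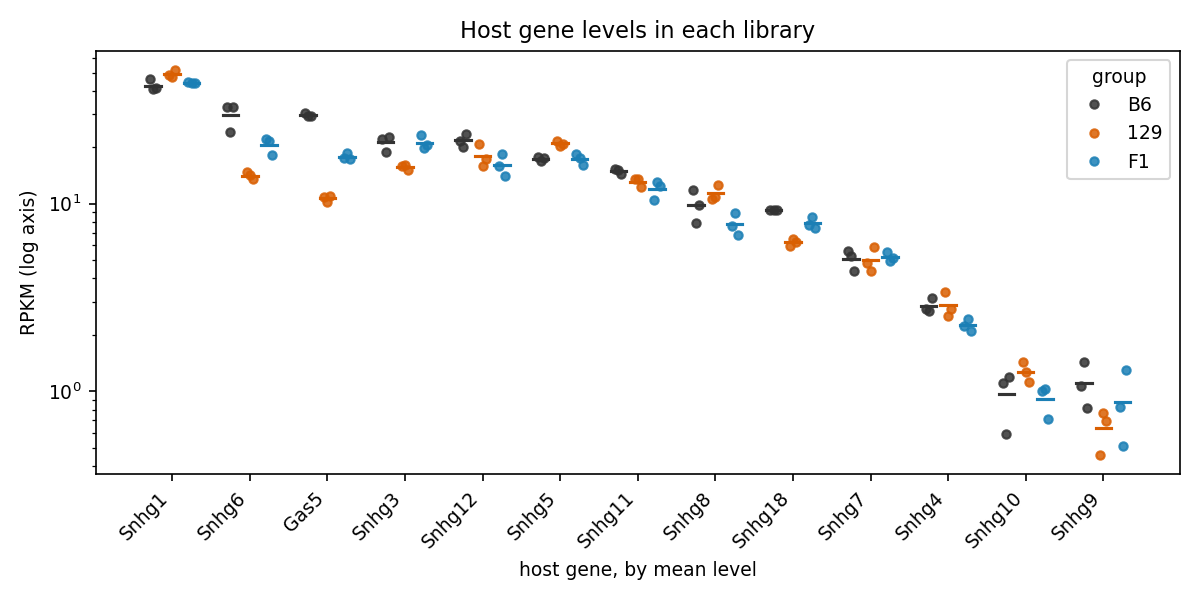
RPKM (log axis) of the 13 host genes, ordered by mean level, in each library of B6, 129 and F1; points are libraries and bars are group means. For Gas5 the B6 points (29.2 to 30.4) lie above F1 (17.2 to 18.6), and F1 above 129 (10.3 to 10.9).

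Snhg6, the host of Snord87, followed the same order. Its RPKM was 32.6, 24.0 and 32.8 in B6, 14.8, 14.2 and 13.5 in 129, and 22.1, 21.6 and 18.2 in F1. No library of one group reached another group's range, although the lowest B6 library came near the highest F1 library. Snhg6 was lower in 129 than in B6 by -1.01 ± 0.11 (limma, adjusted p = 4.17e-05), and F1 lay 0.01 ± 0.10 from the mid-parent value (adjusted p = 0.969).

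Snhg18, the host of Snord123, had an RPKM of 9.22, 9.23 and 9.26 in B6, 5.95, 6.46 and 6.23 in 129, and 7.66, 8.45 and 7.42 in F1. The 3 groups again did not overlap, and the SD of the B6 libraries was 0.0202. The difference of 129 from B6 was -0.51 ± 0.05 (limma, adjusted p = 2.38e-05), and that of F1 from the mid-parent value was 0.04 ± 0.04 (adjusted p = 0.554).

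Snhg3 differed from these 3 in its F1 level. Its RPKM was 22.0, 18.9 and 22.7 in B6, 15.9, 16.0 and 15.1 in 129, and 23.1, 19.7 and 20.4 in F1. The 129 libraries were all below those of both other groups, while B6 and F1 overlapped. Snhg3 was lower in 129 than in B6 by -0.41 ± 0.07 (limma, adjusted p = 0.00125), and F1 was higher than 129 by 0.41 ± 0.07 (adjusted p = 0.00241). F1 exceeded the mid-parent value by 0.20 ± 0.06 (adjusted p = 0.0451), a call lost in 11 of 20 alternatives. Leaving out B6 replicate 1, any of the 3 129 libraries, F1 replicate 1 or F1 replicate 3 gave an adjusted p of 0.0544, 0.0708, 0.0654, 0.0833, 0.188 and 0.0840, in that order, and voom gave 0.0724.

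The hosts that rose in 129 moved less. Snhg5 had an RPKM of 17.6, 16.8 and 17.5 in B6, 21.7, 20.3 and 20.9 in 129, and 18.4, 17.6 and 16.2 in F1. Only the 129 libraries stood apart, above both other groups, with a difference from B6 of 0.26 ± 0.05 (limma, adjusted p = 0.00213) and from F1 of the same size (F1 minus 129, -0.26 ± 0.05, adjusted p = 0.00365). Snhg1, the most abundant host, had an RPKM of 45.9, 40.6 and 41.3 in B6, 48.5, 47.2 and 51.6 in 129, and 44.4, 44.1 and 44.1 in F1. All 129 libraries were above all others, and the difference from B6 was 0.20 ± 0.05 (limma, adjusted p = 0.0116). Without 129 replicate 3 it was 0.17 with an adjusted p of 0.0514.

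Between F1 and B6, 5 hosts were lower in F1 (Gas5, Snhg6, Snhg18, Snhg11 and Snhg12) and 0 were higher, where 31.2% of all genes were called, 11.0% higher and 20.2% lower. No host passed in the higher direction by voom either, and voom, which called 33.7% of all genes, called the same 5 lower. At an unadjusted p under 0.05 there were 7 of the 13 hosts, in both directions together, beside 4885 of the 11542 genes. Between F1 and 129, 4 hosts were higher in F1 (Gas5, Snhg6, Snhg18 and Snhg3) and 2 were lower (Snhg5 and Snhg8), where 27.7% of all genes were called, 12.0% higher and 15.7% lower. Voom called the same 6 and 30.1% of all genes. These comparisons share libraries, so their calls are not separate evidence.

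In F1 minus the mid-parent value, 1 host was higher (Snhg3, above) and 3 were lower (Snhg8, Snhg4 and Snhg11), where 23.2% of all genes were called, 8.35% higher and 14.8% lower. Voom, with 27.1% of all genes called, called Snhg8, Snhg4, Snhg11 and Snhg12, all lower, and not Snhg3. Snhg8, the host of Snora24, had an RPKM of 11.8, 7.92 and 9.84 in B6, 10.7, 10.9 and 12.6 in 129, and 7.64, 8.87 and 6.80 in F1. F1 was below all 129 libraries and overlapped B6 only through B6 replicate 2. It lay below the mid-parent value by -0.40 ± 0.11 (limma, adjusted p = 0.0234), which became 0.0769 without F1 replicate 1, 0.107 without F1 replicate 3 and 0.0654 with no filter. It was lower than 129 by -0.50 ± 0.13 (adjusted p = 0.0134), which became 0.0513 without 129 replicate 3 and 0.0550 without F1 replicate 3. Against B6 its adjusted p was 0.0951, and 0.0135 without B6 replicate 2.

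Snhg11 had an RPKM of 15.3, 15.03 and 14.4 in B6, 13.5, 13.6 and 12.2 in 129, and 10.4, 13.0 and 12.4 in F1. B6 stood above the other groups, which overlapped. F1 was lower than B6 by -0.30 ± 0.07 (limma, adjusted p = 0.00878) and than the mid-parent value by -0.21 ± 0.06 (adjusted p = 0.0299). The second call was lost without B6 replicate 1 (0.0589), 129 replicate 1 (0.0617), 129 replicate 2 (0.0608), F1 replicate 1 (0.103) or F1 replicate 3 (0.0535), with no filter (0.0659) and with median-of-ratios rescaling (0.0508). Between the parents the adjusted p of Snhg11 was 0.0737, and 0.0169 without F1 replicate 1.

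Snhg4 had an RPKM of 2.74, 2.68 and 3.16 in B6, 3.40, 2.53 and 2.75 in 129, and 2.23, 2.44 and 2.11 in F1. All 3 F1 libraries were below all parental ones, by -0.25 ± 0.07 from the mid-parent value (limma, adjusted p = 0.0364). That p was 0.0514 without B6 replicate 1, 0.0639 without B6 replicate 3, and 0.103, 0.0503 and 0.135 without F1 replicates 1, 2 and 3. It was 0.0829 with no filter and 0.0510 with median-of-ratios rescaling. Against B6 alone Snhg4 missed the threshold at 0.0535, and passed without 129 replicate 1 (0.0242) or 129 replicate 2 (0.0454). Against 129 it missed at 0.0523, and passed without B6 replicate 3 (0.0483) or 129 replicate 2 (0.0323).

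Snhg12, which holds 4 short RNAs, had an RPKM of 21.6, 20.01 and 23.6 in B6, 20.9, 15.8 and 17.3 in 129, and 15.8, 18.3 and 14.1 in F1. B6 lay above F1 without overlap, and 129 overlapped both. F1 was lower than B6 by -0.42 ± 0.11 (limma, adjusted p = 0.0140), which became 0.0505 without B6 replicate 3 and 0.0554 without F1 replicate 3. For 129 minus B6 the difference was -0.27 ± 0.11 (adjusted p = 0.0761, and 0.0196 without 129 replicate 1). For F1 minus the mid-parent value it was -0.28 ± 0.09 (adjusted p = 0.0502), and voom called it (adjusted p = 0.0330). That value also passed without B6 replicate 2 (0.0374), 129 replicate 2 (0.0333) or F1 replicate 2 (0.0264).

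The other 3 hosts, Snhg7, Snhg9 and Snhg10, passed no test. Snhg7 was level across the groups, at 5.08 ± 0.607 in B6, 5.01 ± 0.768 in 129 and 5.20 ± 0.281 in F1. Snhg9 and Snhg10 were the least abundant hosts, with means between 0.639 and 1.27 RPKM in every group. Snhg9 rested on a mean of 5.11 reads per library, and all its 129 libraries (0.459 to 0.768) were below all B6 libraries (0.812 to 1.43), with an adjusted p of 0.0977.

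**Figure D2:**
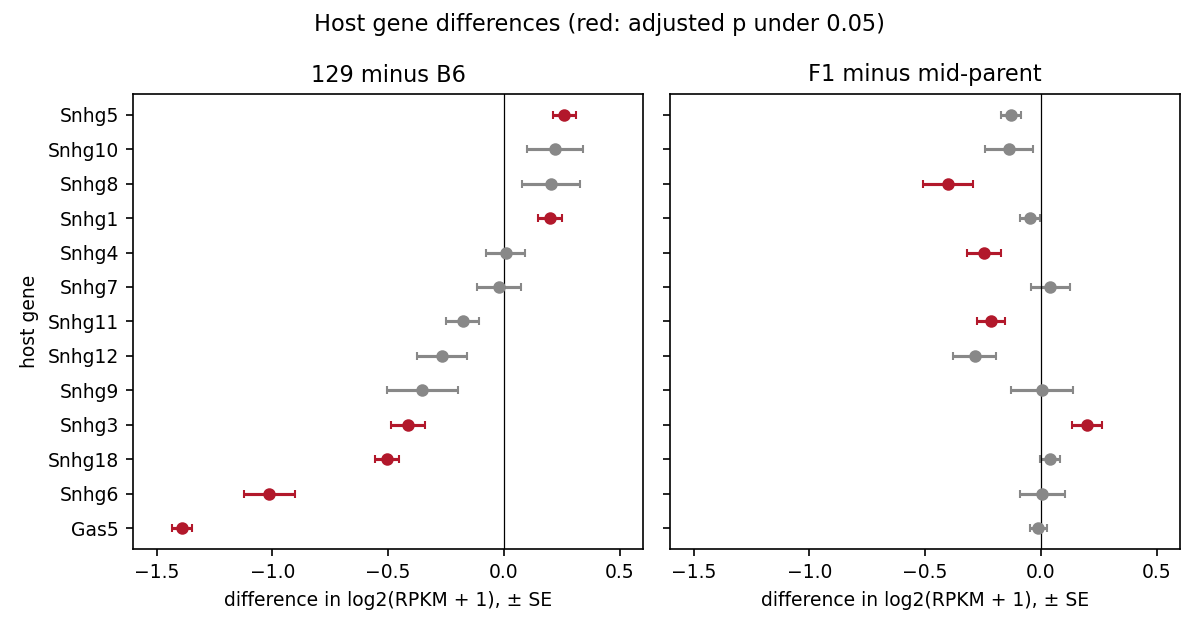
Differences in log2(RPKM + 1) with standard errors for the 13 hosts, for 129 minus B6 (left) and F1 minus the mid-parent value (right); red points have an adjusted p under 0.05. Gas5 and Snhg6 lie at -1.39 and -1.01 on the left and within 0.02 of 0 on the right, while Snhg8 lies at 0.20 on the left, not called, and at -0.40 on the right.

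Some markers of other cells moved between the same groups. The counts are to be read beside all genes tested. Of these, 15.9% were higher and 21.7% lower in 129 than in B6, and 11.0% higher and 20.2% lower in F1 than in B6. Of the endothelial markers (Pecam1, Cdh5, Kdr, Tek), 2 of 2 tested were lower in 129. The summed RPKM of the list was 4.79 to 5.51 (B6), 2.53 to 2.96 (129) and 3.57 to 3.70 (F1). That sum had the order of groups of Gas5, Snhg6 and Snhg18, but not every marker did. Kdr, which did not pass the filter, was lowest in F1 (means of 0.436 in B6, 0.319 in 129 and 0.272 in F1). Tek was not called between F1 and 129 (limma, adjusted p = 0.246). Macrophage markers summed to 12.6 to 14.8 (B6), 5.55 to 11.3 (129) and 9.51 to 14.7 (F1), with 2 of 5 tested lower in 129. These 2 were C1qa and C1qb, while Csf1r was level between the parents (0.01 ± 0.09, limma, adjusted p = 0.940). Progenitor and fibroblast markers summed to 756.8 to 924.2 (B6), 1197 to 1353 (129) and 958.5 to 1117 (F1), with 3 of 4 tested higher in 129. Most of this sum was Col1a1. In F1 minus B6, 1 of the 4 was higher (Col1a1) and 2 were lower (Cd34 and Pi16). Of the smooth muscle markers, 2 of 4 tested were lower in 129, at sums of 124 to 140 (B6), 127 to 135 (129) and 98.2 to 104 (F1). Mast cell markers summed to 2.40 to 2.75 (B6), 54.0 to 62.5 (129) and 25.5 to 31.8 (F1), nearly all from Tpsab1, while Cpa3 was lower in 129 and Fcer1a was at 0 in all parental libraries. The part of these cells in the host differences was not tested.

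Reads on the short RNAs were few. Of every 1000000 reads the 117 short RNAs together took 28.5 to 33.4 (B6), 29.4 to 31.3 (129) and 27.2 to 29.1 (F1). The B6 range overlapped both others, and all F1 libraries were below all 129 libraries. In all 9 libraries 14 of them had 0 reads, and 65 had reads in every library. The median short RNA had a mean of 4 reads per library, and 85 had a mean under 10. The RPKM filter was passed by 74, among them 48 of 70 box C/D and 25 of 36 box H/ACA snoRNAs, 1 of 9 scaRNAs (Scarna17) and 0 of 2 minor spliceosomal RNAs. Rnu11 and Rnu12, RNAs of the minor spliceosome, had 3 reads each over all 9 libraries, so no difference was detectable at this depth. At least 1 read was seen for 81 to 87 short RNAs (B6), 83 to 86 (129) and 89 to 93 (F1, the most deeply sequenced group).

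**Figure D3:**
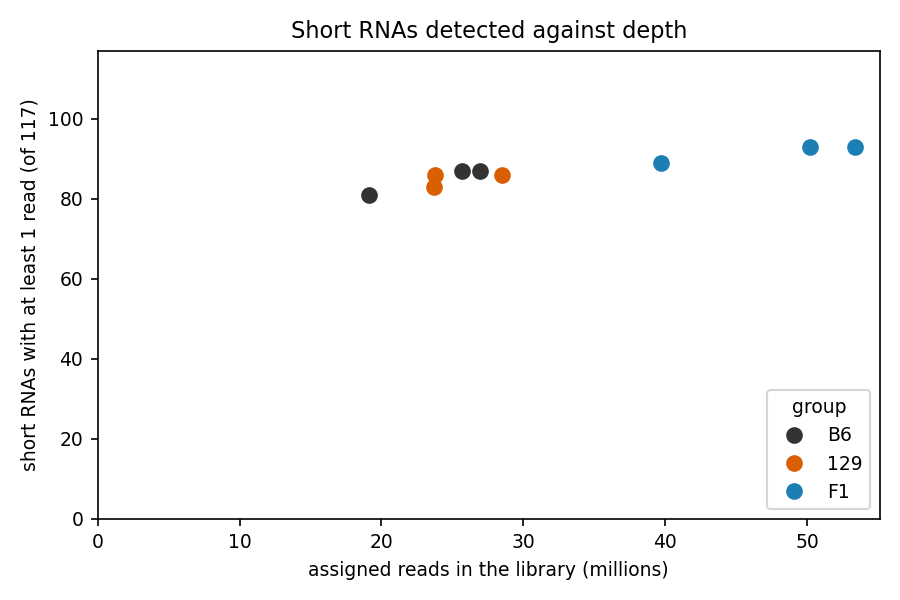
Number of the 117 short RNAs with at least 1 read (vertical axis) against assigned reads (horizontal axis, in units of 1000000), 1 point per library coloured by group. The 3 F1 libraries are the deepest and detect 89 to 93, and the shallowest library, B6 replicate 2, detects 81.

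Of the 14 short RNAs at 0, 9 overlapped an exon or small RNA of another gene on the same strand, among them Snora24 inside the single exon of Snhg8 and the 3 Snord116 genes, which share the same 10 blocks. Of the 103 with reads, 7 had such an overlap. Members at 0 with such an overlap are therefore uncertain, and so is a share of the reads of their partners. Snord64, which neighbours the Snord116 cluster, had 5 to 30 reads per library.

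A gene on the same strand contained 104 of the 117 short RNAs. Of these, 14 lay inside 10 of the member hosts and 31 inside 21 ribosomal protein genes. The ribosomal protein genes held 35.8% of the 8666 reads on short RNAs. Among 93 short RNAs with reads inside a single gene, the RPKM of the short RNA was a median of 2.55% of that of its container (quartiles 0.683% and 11.5%). Snora78 alone exceeded its container, at 144% of Snhg9, on a mean of 6.44 reads. Across these 93 pairs, which share libraries and 69 containers, Spearman's rho of the mean levels was 0.44 and Pearson's r of the log2 levels 0.42.

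**Figure D4:**
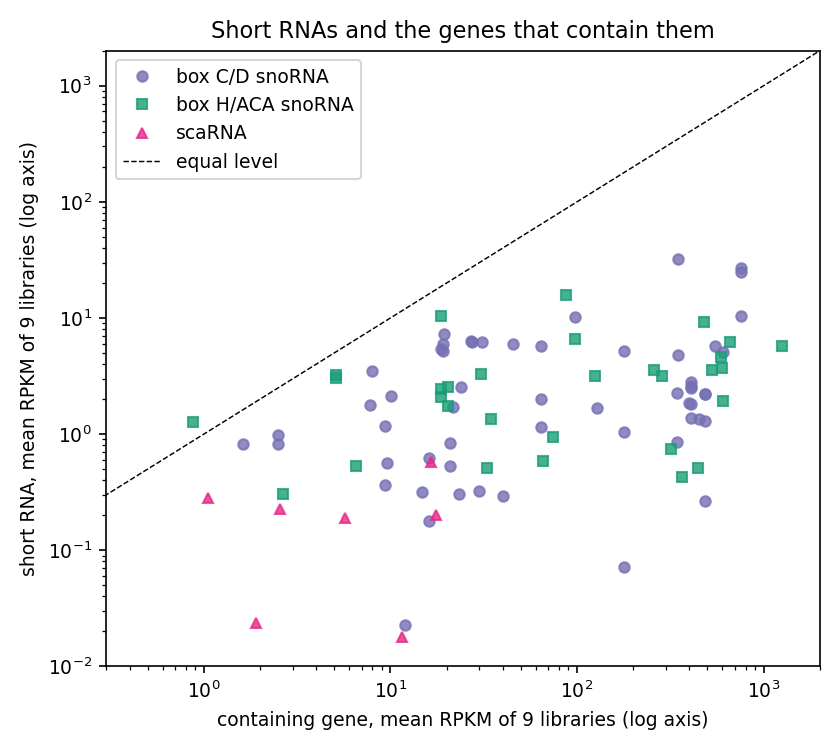
Mean RPKM over 9 libraries of each short RNA (vertical, log axis) against that of the gene containing it (horizontal, log axis), for 93 pairs by class; the dashed line marks equal levels. Points lie below the line except Snora78 in Snhg9, and the median is 2.55% of the container.

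The 10 short RNAs with the most reads held 43.9% of all short RNA reads. They were Snord96a in Gnb2l1, Snord4a and Snord42a in Rpl23a, Snora28 in Eif5, Snord104, Snora65 in Rpl12, Snora81 and Snord2 in Eif4a2, Snora52 in Rplp2 and Snord22 in Snhg1. Snord96a led, with 75, 40 and 57 reads in B6, 58, 89 and 62 in 129, and 106, 133 and 89 in F1, which gave 30.9 ± 6.15, 35.4 ± 4.64 and 30.0 ± 6.18 RPKM. Its groups overlapped, and no test passed. Of the 10, Snord42a was called lower in 129 (-0.44 ± 0.14, limma, adjusted p = 0.0310), from 34, 19 and 45 reads in B6 and 24, 27 and 21 in 129. That call did not stand in voom (adjusted p = 0.0991), nor without B6 replicate 1 (0.0740), B6 replicate 3 (0.0812), 129 replicate 2 (0.0724) or 129 replicate 3 (0.0931). Snord4a in the same gene differed by -0.17 ± 0.14 (adjusted p = 0.371). Snord42b, also in Rpl23a and not among the 10, was called lower in 129 by limma (-0.47, adjusted p = 0.0241) and not by voom.

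Between the parents 17 of the 74 short RNAs tested were called, 7 higher and 10 lower in 129. This was 23.0% of them, beside 37.5% of all genes. Voom, which takes the few reads into account, called 4, all lower in 129 and all among the 17: Rnu73b, Snord53, Snora7a and Snora34. The median difference over the 74 was -0.03, as over all genes. Groups did not overlap for 5 higher and 7 lower of the 74, where 49.9% of all genes had groups that did not overlap. Without B6 replicate 2, the shallowest library, 10 were called.

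Rnu73b, a box C/D snoRNA in an intron of the ribosomal protein gene Rps3a1 (chromosome 3, 85944539 to 85944609, minus strand, mm9), had 10, 5 and 11 reads in B6, 0 in all 3 129 libraries, and 2, 13 and 3 in F1. F1 replicate 2 had 13 of the 18 F1 reads, and in RPKM all F1 libraries lay between the groups of B6 and 129. In RPKM B6 held 4.97 ± 1.13 and F1 1.66 ± 1.53. Against a floor of 3 reads over the 129 group, B6 was at least 9.18-fold higher and F1 at least 3.18-fold higher. The difference of 129 from B6 was -2.56 ± 0.30 (limma, adjusted p = 6.56e-05; voom, 9.37e-05). F1 differed from the mid-parent value by -0.01 ± 0.26 (adjusted p = 0.980), and by -0.45 without F1 replicate 2 (adjusted p = 0.0359). With 129 at 0 reads this value depends on the pseudocount and the scale: it was 0.98 at a pseudocount of 0.1 (adjusted p = 0.101) and -0.54 against the mean of the parental RPKM (adjusted p = 0.192).

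The gene around it was higher in 129. Rps3a1 had an RPKM of 461, 448 and 451 in B6, 551, 517 and 550 in 129, and 483, 471 and 425 in F1, and was higher in 129 by 0.25 ± 0.06 (limma, adjusted p = 0.00614). Snord73a, also inside Rps3a1, had 6, 6 and 4 reads in B6, 2, 2 and 4 in 129, and 3, 9 and 5 in F1. It was called lower in 129 by limma (-0.78 ± 0.25, adjusted p = 0.0337) and not by voom (adjusted p = 0.116), and its groups overlapped. Snord73a is named here for its relation to Rnu73b, after its values were seen.

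Snord53, a box C/D snoRNA in Wdr43, which encodes a nucleolar protein of ribosome assembly (chromosome 17, 71990229 to 71990296, plus strand, mm9), had 7, 9 and 7 reads in B6, 0 in all 3 129 libraries, and 4, 7 and 4 in F1. In RPKM all 3 groups were apart, at 4.92 ± 1.74 in B6 and 1.53 ± 0.38 in F1, with F1 between the parents. B6 was at least 8.12-fold and F1 at least 2.65-fold higher than the floor of 3 reads over the 129 group. The difference of 129 from B6 was -2.53 ± 0.17 (limma, adjusted p = 1.25e-06; voom, 1.49e-05), and that of F1 from the mid-parent value was 0.06 ± 0.15 (adjusted p = 0.793). The second value also depends on the pseudocount and the scale: it was 1.20 at a pseudocount of 0.1 (adjusted p = 0.00270, a call gained) and -0.46 against the mean of the parental RPKM (adjusted p = 0.0591). Wdr43 itself had 10.5 ± 0.150 RPKM in B6, 9.91 ± 0.345 in 129 and 9.98 ± 0.651 in F1, a parental difference of -0.07 ± 0.05 (adjusted p = 0.278).

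Snora34, a box H/ACA snoRNA in Kansl2, had 5, 6 and 9 reads in B6, 3, 2 and 3 in 129, and 10, 11 and 11 in F1. In RPKM 129 (0.912 ± 0.274) lay below B6 (2.38 ± 0.637) and F1 (1.91 ± 0.201) without overlap, and B6 and F1 overlapped. It was lower in 129 by -0.81 ± 0.14 (limma, adjusted p = 0.00118; voom, 0.0249). Kansl2 was lower in 129 too, by -0.15 ± 0.05 (adjusted p = 0.0347). Snora34 overlaps the microRNA gene Mir1291 on the same strand, so its reads could be split between the 2 and its level is uncertain.

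Snora7a, a box H/ACA snoRNA in the ribosomal protein gene Rpl32, was the one of the 4 in which F1 overlapped 129 and not B6. It had 18, 12 and 22 reads in B6, 6, 13 and 8 in 129, and 16, 14 and 15 in the deeper F1 libraries. In RPKM B6 (5.54 ± 0.741) lay above 129 (2.70 ± 0.796) and F1 (2.49 ± 0.568) without overlap, and the last 2 overlapped. It was lower than B6 by -0.84 ± 0.16 in 129 (limma, adjusted p = 0.00167; voom, 0.0158) and by -0.91 ± 0.16 in F1 (limma, adjusted p = 0.00152; voom, 0.00358). F1 was below the mid-parent value by -0.49 ± 0.13 (adjusted p = 0.0245). Voom gave 0.0518 for that value, and limma 0.103 without F1 replicate 2 and 0.0881 without F1 replicate 3. Rpl32 differed by 0.11 ± 0.07 between the parents (adjusted p = 0.212) and by -0.21 between F1 and the mid-parent value (adjusted p = 0.0256).

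**Figure D5:**
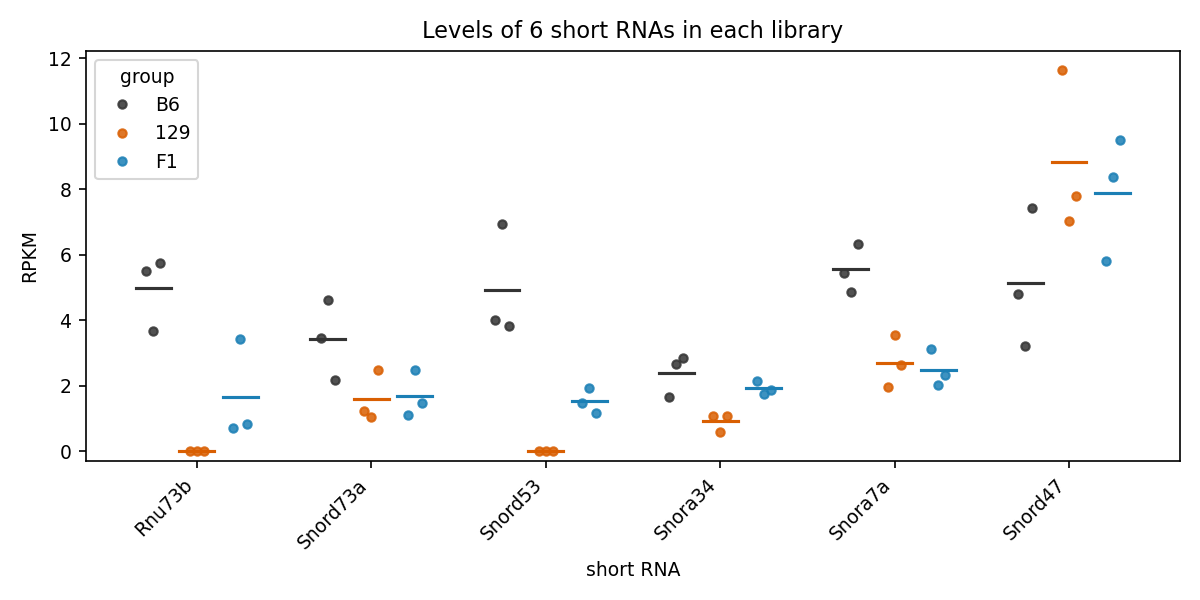
RPKM of 6 short RNAs in each library of B6, 129 and F1; points are libraries and bars are group means. Rnu73b and Snord53 are at 0 in all 3 129 libraries, and Snord47 has its highest point, from 18 reads, in 129.

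Short RNAs inside the member hosts were set beside their hosts, and several differed from them in sign. Snord47, the single short RNA that the files place inside Gas5, had 8, 4 and 13 reads in B6, 18, 13 and 12 in 129, and 15, 29 and 31 in F1. In RPKM it was 5.15 ± 2.13 in B6, 8.82 ± 2.47 in 129 and 7.89 ± 1.88 in F1, with overlap between B6 and both other groups. Limma called it higher in 129 (0.70 ± 0.25, adjusted p = 0.0475) where Gas5 was lower by -1.39, and voom did not call it (adjusted p = 0.142). Snord47 and the other short RNAs of this paragraph were chosen for their hosts after their values were seen. In Snhg12, which had -0.27 for 129 minus B6, the 4 short RNAs had 0.32 (Snora16a), 0.54 (Snora44), 0.91 (Snora61) and 0.72 (Snord99). Of these limma called Snord99 (adjusted p = 0.0230) and voom none (0.0990 for Snord99). In the hosts that fell, Snord123 in Snhg18 had -0.88 ± 0.30 (limma, adjusted p = 0.0417; voom, 0.0768) and Snord87 in Snhg6 -0.51 ± 0.29 (adjusted p = 0.192). In Snhg1, which rose, Snord22 had -0.09 ± 0.19 (adjusted p = 0.743). In Snhg7, which was level (-0.02), Snora43 had 0.50 (limma, adjusted p = 0.0141) and Snora17 0.41 (adjusted p = 0.0524). Snora78 had -0.07 (adjusted p = 0.865), beside -0.35 for its host Snhg9. Voom called none of Snora43, Snora17 and Snora78. The short RNAs inside Snhg4, Snhg8 and Snhg10 did not pass the filter.

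Over the 68 short RNAs that were tested along with their single containing gene, the 129 minus B6 differences had a Spearman's rho of -0.16 with those of the containers. The pairs share libraries, and several share a container. The sign was the same in 26 of 68 pairs. Of the 17 short RNAs called, 5 had a called container, beside 37.5% called of all genes. Of those 5 short RNAs, 2 moved in the same direction as their container.

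In F1 minus B6, 4 short RNAs were called higher and 6 lower, 13.5% of those tested beside 31.2% of all genes. Voom called 3 of them, Rnu73b, Snord53 and Snora7a, all lower. The count was 5 without F1 replicate 1 or without F1 replicate 3. In F1 minus 129, 4 were higher and 3 lower, 9.46% beside 27.7% of all genes. Voom called Snord53, Rnu73b (both higher) and Snord12 (lower). Snord12, named after its values were seen, had 11, 7 and 9 reads in B6, 12, 20 and 11 in 129, and 12, 17 and 17 in F1, and its F1 minus 129 difference was -0.67 ± 0.12 (limma, adjusted p = 0.00272; voom, 0.0305).

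In F1 minus the mid-parent value, limma called 0 short RNAs higher and 3 lower (Snora7a, Snord12 and Snord37), 4.05% beside 23.2% of all genes, and voom called 0. At an unadjusted p under 0.05 limma had 12 of the 74, beside 4206 of the 11542 genes. The count moved from 1 without F1 replicate 3 to 9 without B6 replicate 3, and was 5 without 129 replicate 1 or 2 and 6 without 129 replicate 3.

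Genes of the snoRNA pathway were counted from lists, to be read beside the 37.5% of all genes called between the parents (15.9% higher and 21.7% lower in 129). Of the box C/D core proteins, 0 of 4 tested were called between the parents: the methyltransferase Fbl (32.0 ± 3.06 RPKM in B6, 28.2 ± 1.23 in 129, adjusted p = 0.0682), Nop56, Nop58 and Nhp2l1. Of the box H/ACA core proteins 0 of 4 were called: the pseudouridine synthase Dkc1 (8.56 ± 0.888 and 7.67 ± 0.746, adjusted p = 0.193), Nhp2, Nop10 and Gar1. The list medians were -0.03 and -0.02, beside -0.03 for all genes. In F1, Nop58 was lower than B6 by -0.15 ± 0.04 (limma, adjusted p = 0.0226) and than the mid-parent value by -0.15 ± 0.04 (adjusted p = 0.0182).

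Of 10 assembly factors, 2 were higher and 1 lower in 129, a share near that of all genes (37.5%). Znhit6, a factor of box C/D assembly, had an RPKM of 9.16, 7.79 and 8.87 in B6, 16.3, 14.4 and 15.5 in 129, and 10.2, 9.97 and 10.3 in F1. The 3 groups did not overlap, and 129 was higher than B6 by 0.77 ± 0.06 (limma, adjusted p = 4.09e-06). F1 lay below the mid-parent value by -0.17 ± 0.05 (adjusted p = 0.0423). Ruvbl2, an ATPase of the assembly chaperone, had 34.7, 32.6 and 33.3 in B6, 18.3, 18.5 and 19.8 in 129, and 31.1, 29.9 and 28.6 in F1. Its groups did not overlap either, with 129 lower than B6 by -0.80 ± 0.05 (limma, adjusted p = 4.53e-07) and F1 above the mid-parent value by 0.24 ± 0.04 (adjusted p = 0.00239). Its partner Ruvbl1 differed by 0.05 ± 0.07 between the parents (adjusted p = 0.623). Naf1, a factor of box H/ACA assembly, was higher in 129 by 0.22 ± 0.06 (adjusted p = 0.0120).

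Among 9 genes of Cajal bodies and snoRNA transport 0 were called between the parents, where Coil, the Cajal body scaffold, had -0.19 ± 0.08 (limma, adjusted p = 0.0852). Of 12 nonsense-mediated decay factors, 1 was higher in 129 (Smg6, 0.16 ± 0.05) and 3 were lower: Smg9 (-0.52 ± 0.07), Dhx34 (-0.32 ± 0.06) and Upf1, the central helicase (-0.27 ± 0.04, adjusted p = 0.000426). Their median was -0.09, and their share called was near the 37.5% of all genes. Of 10 genes of the nuclear exosome and snoRNA trimming, 1 was higher (Mphosph6, 0.39 ± 0.07) and 1 lower (Skiv2l2, the exosome helicase, -0.43 ± 0.04, adjusted p = 9.70e-06). Of 9 minor spliceosome proteins, 0 were higher and 5 lower in 129 (all genes, 21.7% lower), with a median of -0.14, among them Snrnp25 (-0.29 ± 0.07, adjusted p = 0.00732) and Zmat5 (-0.29 ± 0.08, adjusted p = 0.0140).

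Other RNAs without a poly(A) tail were listed too, with levels resting mostly on 1 RNA. Whether they measure how much such RNA the libraries held was not tested. Of 9 listed, 5 were measured and 1, the ribosomal RNA precursor Rn45s, was tested. Its RPKM was 112, 64.3 and 124 in B6, 148, 70.2 and 93.3 in 129, and 60.6, 60.1 and 64.4 in F1. All F1 libraries were below all 129 libraries, and F1 overlapped B6 only at B6 replicate 2. Between the parents limma gave an adjusted p of 0.924. Set against F1, B6 had an adjusted p of 0.0963 and 129 one of 0.0871 (F1 minus 129, -0.67 ± 0.27). The summed RPKM of the 5 was 65.5 to 126 (B6), 70.7 to 148 (129) and 60.9 to 65.0 (F1), nearly all from Rn45s. The others did not pass the filter. Their means in B6, 129 and F1 were 0.947, 0.374 and 0.124 (Rpph1) and 0.522, 0.153 and 0.190 (Rmrp). For Terc they were 0.461, 0.195 and 0.281, and for Vaultrc5 0.0359, 0.0814 and 0.117. Unlike Rn45s, Rpph1, Rmrp and Terc had clearly higher means in B6 than in 129, and Vaultrc5 had a lower one. For Terc all B6 libraries (0.29 to 0.56) were above all 129 libraries (0.11 to 0.27). The part of this spread in the short RNA values was not tested.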

How the data were processed

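RNA was measured in 9 poly(A) libraries, 3 each of B6, 129 and F1, made with a stranded mRNA kit per the labels' protocols. The authors deposited RPKM values for 24015 genes. The aligner was STAR and the build mm9, per the submitters' processing notes. For the read counter, its strand setting, the annotation release and filters, the answer is not given in the sources used here. mm9 is a C57BL/6J assembly, and how well reads of 129 alleles aligned to it was not tested.

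Reads were recovered as RPKM times exon length times depth, and all values were whole within 0.1 read. Genes with an RPKM of at least 1 in at least 3 libraries (11542) were fitted as log2(RPKM + 1) by limma 3.58.1 under R 4.3.3, with a mean-variance trend and 1 mean for each group. Two-sided p-values were adjusted over these genes after Benjamini and Hochberg. The procedure was tested on simulated data with the same spread between libraries set for all genes. Recovery of differences was not measured apart for short RNAs there. Voom (limma) on the recovered reads was run beside it.

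Where 129 had 0 reads, folds were set against 3 reads over the group, for counting error only. Genes named were all 13 hosts, the 10 short RNAs with the most reads, those called by both limma and voom for 129 minus B6 or F1 minus mid-parent, Rnu73b, Snord53, and up to 4 members of each pathway list with the smallest p. Others were chosen after their values were seen. Members and lists were chosen with earlier results of these data known. Sequences came from GENCODE M21 (115 short RNAs matched) and RefSeq. Sequences of Snhg4 and Snhg6 starts are not shown.

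Alternatives were other pseudocounts (0.1, 0.5), filters (none, RPKM of at least 5, at least 10 reads in 3 libraries), median-of-ratios rescaling, voom, array weights, a replicate block, another mid-parent scale and each library left out. Voom with at least 10 reads in 3 libraries was chosen after seeing the data.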

Additional observations from a re-analysis of the deposited data

How the results depend on the processing

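Among 80 values of named hosts and short RNAs, 27 were called and 18 of these stayed called in all alternatives run. Of 1515 alternative values, 0 reversed a called direction. The counts of called hosts in the 3 comparisons between groups stayed within 1.5 times, at 5 to 7 (129 minus B6), 4 to 6 (F1 minus B6) and 5 to 7 (F1 minus 129) without 1 library. For F1 minus the mid-parent value the 4 called hosts became 0 with no filter, 2 with median-of-ratios rescaling, and 0 to 6 without 1 library.

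Called short RNAs depended on the filter and the test. Between the parents the 17 became 8 with no filter, 8 with an RPKM of at least 5, 4 with voom, 3 with voom and at least 10 reads, and 10 to 16 without 1 library. For F1 minus B6 the 10 became 5, 4, 3, 2 and 5 to 13 under the same settings. For F1 minus 129 the 7 became 1 with an RPKM of at least 5, 3 with voom, 2 with voom and at least 10 reads, and 5 to 10 without 1 library. For F1 minus the mid-parent value the 3 became 0 with either voom filter, 7 with array weights, 5 with the mid-parent as a mean of RPKM, 6 with the replicate block, and 1 to 9 without 1 library. The cause was not tested.

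Deviations of same-numbered libraries correlated at -0.19 to 0.22, and those of differently numbered libraries at -0.20 to 0.23. Between B6 and 129 the same-numbered values were 0.07, 0.12 and 0.22, and the others -0.17 to 0.05. Same-numbered pairs with F1 had both signs. Whether replicate numbers pair the libraries cannot be told from these values. The replicate block left every other count of calls within 1.5 times, and among the named values it changed 1 call, Snhg4 in F1 minus mid-parent (adjusted p = 0.0542, value -0.25 as before). Median-of-ratios rescaling moved the median of all genes by at most 0.04 and the share of calls that were higher from 35.3% to 49.7% (F1 minus B6) and from 36.0% to 49.1% (F1 minus mid-parent). With a median of 4 reads for each short RNA, small differences were not detectable.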
